A study of Mus musculus with 8 samples.

Results

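Eicosanoid synthesis enzymes turn arachidonic acid into leukotrienes, prostaglandins, thromboxane and hydroxy fatty acids. The 10 genes described here are Alox15, Alox5, Alox5ap, Lta4h, Ltc4s, Ptgs1, Ptgs2, Ptges, Hpgds and Tbxas1, out of 24421 gene symbols counted. They were chosen by name for the lipoxygenase, leukotriene and cyclooxygenase branches, and Alox15 was also chosen because its rise in ABCG1KO was known to be among the largest. Its values in comparisons with ABCG1KO are therefore a description and carry no test. The study measured RNA from mouse macrophages in 8 libraries, all from mice on a normal diet. WT (3 libraries) is wild type. LysM-DKO (3 libraries) is a sample label that was taken to mean the macrophages with the epsin double knockout named in the series design. LysM is an older name of Lyz2, a gene whose promoter is active in myeloid cells, and the labels do not name a Cre allele. ABCG1KO (2 libraries) is labelled as a knockout of Abcg1, a cholesterol transporter, with no further detail of the allele or the cells that lack it. The age of the mice and the tissue of origin are not given in the labels, and nothing says whether replicates came from separate animals, so p-values measure only the spread between these libraries.

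Free arachidonic acid is used by competing enzymes. Lipoxygenases add oxygen to it: Alox15 encodes the arachidonate lipoxygenase typical of resident peritoneal macrophages, and Alox5 makes the unstable leukotriene A4 with the help of Alox5ap, a membrane protein that presents the substrate. Lta4h then forms leukotriene B4, a chemoattractant, and Ltc4s forms leukotriene C4, the first of the cysteinyl leukotrienes. Cyclooxygenases, encoded by Ptgs1 and Ptgs2, form prostaglandin H2, which Ptges, Hpgds and Tbxas1 convert to prostaglandin E2, prostaglandin D2 and thromboxane A2. Macrophages are a known source of most of these mediators, and mast cells and eosinophils also express several of the enzymes.

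The counts in genes ranged from 29567615 to 41888516 per library. All 10 macrophage markers (among them Adgre1, Cd68 and Csf1r) were above 3 counts in all 8 libraries, which fits the labelled cell type. Their levels differed between groups. In ABCG1KO against WT, edgeR called 4 of the 10 higher (Adgre1, Csf1r, Cd14 and Aif1) and 1 lower (Cd68). These counts stand beside 7.21% of all genes called higher and 8.83% called lower. Abcg1 was at 60.4 and 73.4 CPM (the library's counts scaled to the usual total, with TMM factors) in ABCG1KO and at 345 to 405 CPM in WT. Epn1 was at 155 to 183 CPM in LysM-DKO and 191 to 230 CPM in WT, and Epn2 was at 5.67 to 13.2 CPM and 4.97 to 8.86 CPM. The levels of Epn1 and Epn2 thus do not check the LysM-DKO label, and gene-level counts cannot show whether single exons are missing. Lyz2 was at 6177 to 8105 CPM in LysM-DKO, 13004 to 15710 CPM in WT, and 14412 and 11237 CPM in ABCG1KO. Its log2 fold change of LysM-DKO over WT was -1.09 (SE 0.202), which edgeR did not call (adjusted p = 0.173). The cause of this lower level was not tested. Reads outside annotated genes averaged 12.0% in ABCG1KO, 5.44% in LysM-DKO and 5.29% in WT. Y-linked transcripts were present in both ABCG1KO libraries and in LysM-DKO 1 and were at or near 0 in WT, so in ABCG1KO against WT the sex of the mice and the genotype cannot be told apart.

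Promoter windows of 300 bases, from 250 before to 50 after the start of transcription, were found in RefSeq (GRCm38.p6) for 8 of the 10 genes; those of Alox15 and Alox5ap were not used here. The windows of the 4 genes with an adjusted p under 0.05 in ABCG1KO against WT are shown because Alox5, Ltc4s and Ptges were higher together there and Hpgds was lower. Alox5 lies at chr6:116461129-116461428, Ltc4s at chr11:50238483-50238782, Ptges at chr2:30903248-30903547 and Hpgds at chr6:65144681-65144980, and each is on the minus strand and written 5′ to 3′ along the gene. Capitals mark GAGGAA or its reverse complement TTCCTC, the core bound by ETS factors such as PU.1, and in Ptges the STAT6 pattern TTCNNNNGAA and in Hpgds the C/EBP pattern TTGCNNAA, read on the opposite strand.
Alox5: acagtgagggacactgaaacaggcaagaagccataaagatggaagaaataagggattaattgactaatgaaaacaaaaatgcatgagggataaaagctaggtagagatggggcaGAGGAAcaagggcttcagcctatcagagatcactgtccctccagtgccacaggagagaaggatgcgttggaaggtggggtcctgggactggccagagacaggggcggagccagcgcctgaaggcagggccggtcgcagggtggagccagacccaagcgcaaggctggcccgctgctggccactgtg
Ltc4s: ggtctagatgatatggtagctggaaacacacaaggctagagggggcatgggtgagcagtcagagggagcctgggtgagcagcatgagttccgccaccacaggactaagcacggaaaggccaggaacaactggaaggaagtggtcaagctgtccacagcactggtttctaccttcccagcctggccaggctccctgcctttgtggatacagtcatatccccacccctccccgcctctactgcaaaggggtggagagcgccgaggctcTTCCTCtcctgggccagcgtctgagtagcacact
Ptges: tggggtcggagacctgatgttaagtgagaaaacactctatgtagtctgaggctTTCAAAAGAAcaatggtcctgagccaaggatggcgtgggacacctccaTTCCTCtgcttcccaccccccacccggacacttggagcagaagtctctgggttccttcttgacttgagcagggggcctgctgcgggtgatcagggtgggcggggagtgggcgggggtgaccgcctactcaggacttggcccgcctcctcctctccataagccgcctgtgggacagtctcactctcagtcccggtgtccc
Hpgds: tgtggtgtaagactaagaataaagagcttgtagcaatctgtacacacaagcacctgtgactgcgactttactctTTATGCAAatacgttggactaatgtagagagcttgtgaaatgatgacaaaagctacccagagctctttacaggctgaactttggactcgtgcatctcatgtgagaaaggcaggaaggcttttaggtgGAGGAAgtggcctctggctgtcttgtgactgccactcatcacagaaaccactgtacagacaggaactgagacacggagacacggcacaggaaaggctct

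GAGGAA, on either strand, was in 8 of the 8 windows and in 28.3% of all 32851 windows. It began at base -136 from the start in Alox5, 17 in Ltc4s, -149 in Ptges and -49 in Hpgds. The STAT6 pattern was in Ptges (base -197) and Tbxas1 (base -121) and in 6.95% of all windows. The C/EBP pattern was in Hpgds (base -176) and Ptgs2 (base -69) and in 10.8% of all windows. TATAAA was in the Tbxas1 window, where it overlaps itself on both strands and adjoins the ETS match, and in 13.6% of all windows. AGATAA or TGATAA, the GATA patterns, were in none of the 8 windows and in 18.6% of all windows. These matches describe letters only. Genes that rose, the gene that fell and genes that did not pass the test all held GAGGAA.

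Per exon length, the order of the 10 genes in WT macrophages ran from Alox5ap at 118 ± 26.3 CPM per kb (SD, n = 3) down to Alox5 at 0.221 ± 0.112. Hpgds (32.6 ± 8.07), Tbxas1 (20.7 ± 2.68), Lta4h (18.7 ± 1.89) and Ptgs1 (10.5 ± 4.54 CPM per kb) followed Alox5ap. Ltc4s (2.62 ± 0.555), Ptges (2.46 ± 0.875), Ptgs2 (0.737 ± 0.549) and Alox15 (0.299 ± 0.240 CPM per kb) made up the lower part above Alox5. Tbxas1 and Lta4h overlapped across libraries, as did Ltc4s and Ptges, Ptgs2 and Alox15, and Alox15 and Alox5. In ABCG1KO the order began with Alox5ap at 351 ± 160 and Alox15 at 208 ± 216 CPM per kb (SD, n = 2), whose libraries overlapped, followed by Ltc4s at 24.9 ± 23.3. Alox15 thus moved from rank 9 in WT and rank 10 in LysM-DKO to rank 2 in ABCG1KO.

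**Figure D1:**
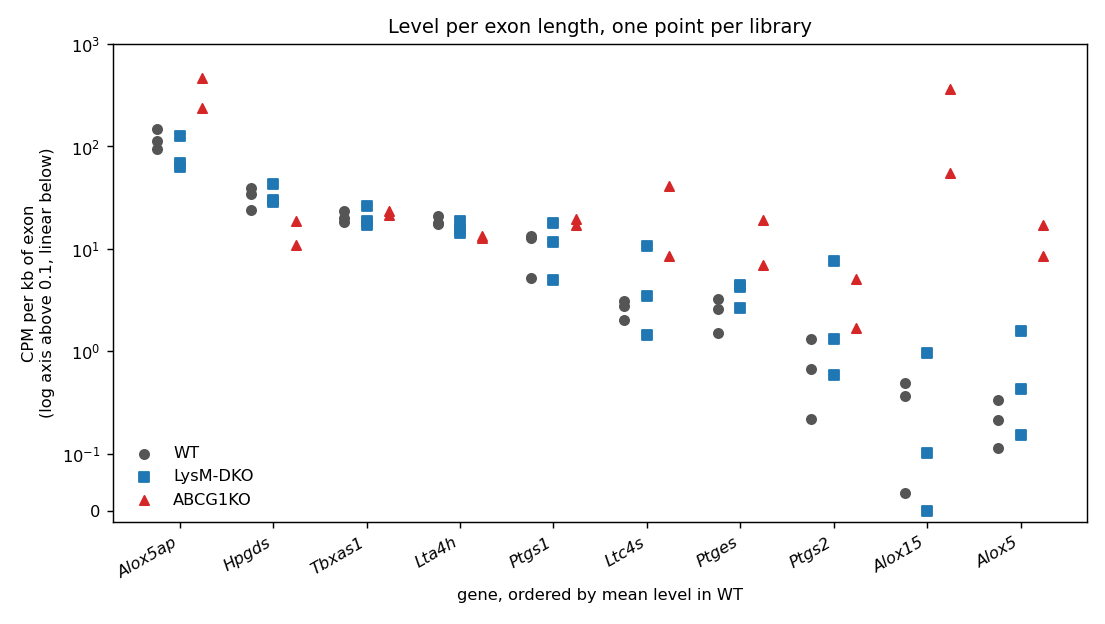
CPM per kb of exon (vertical axis, logarithmic above 0.1 and linear below) for each gene, ordered by its mean in WT, with 1 point per library of WT, LysM-DKO and ABCG1KO. Alox5ap is the highest gene in WT at 118 CPM per kb, and Alox15 goes from 0.299 CPM per kb in WT to 208 in ABCG1KO.

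The main comparison with ABCG1KO asks how macrophages without the cholesterol transporter differ from wild type. In ABCG1KO, Alox5, Alox5ap, Ltc4s and Ptges were higher and Hpgds was lower than in WT at an adjusted p under 0.05, by edgeR's quasi-likelihood test with Benjamini-Hochberg adjustment over all 13821 genes tested. With Alox15, which was chosen for its rise, 6 of the 10 genes were called, beside 16.0% of all genes tested. Of these, 5 were higher, beside 7.21% of all genes, and 1 was lower, beside 8.83%. Since the choice of genes used this contrast, nothing is read from these counts. The CPM of ABCG1KO and WT did not overlap for 7 genes that were higher and 2 that were lower, beside 23.9% and 24.2% of all genes and 48.2% in either direction. Over the 10 genes the median of the log2 fold changes was 1.88, and it was 0.01 over all genes. Scaling by library size alone shifted that median to 0.25 and changed the split of all called genes from 996 higher and 1220 lower to 2074 higher and 856 lower.

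**Figure D2:**
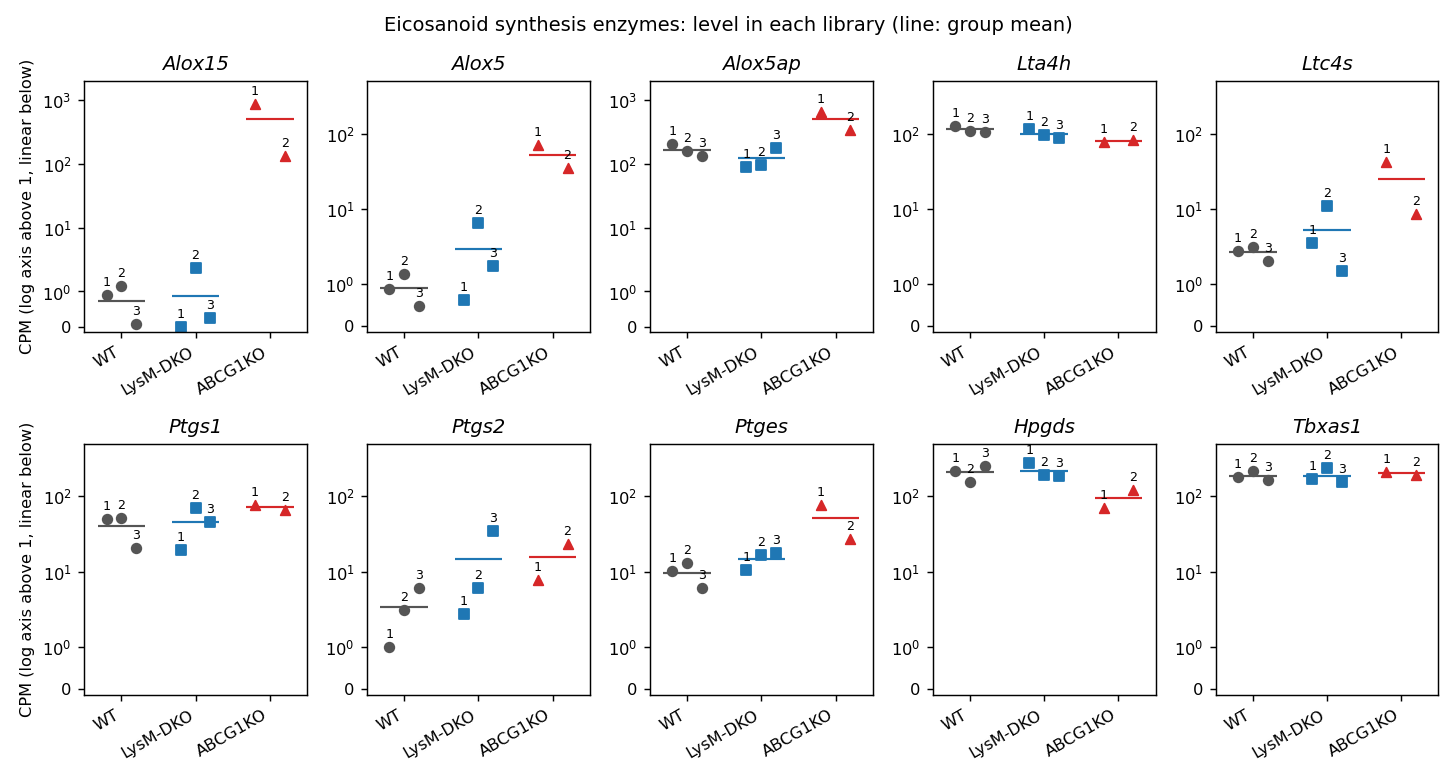
CPM of each gene (vertical axis, logarithmic above 1 and linear below) in each library of WT, LysM-DKO and ABCG1KO, with the replicate number beside each point and a line at the group mean. Alox15 stands at 884 and 135 CPM in ABCG1KO and at 2.36 CPM or less elsewhere, while Tbxas1 lies between 154 and 238 CPM in all libraries.

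Alox15 (GRCm38 chr11:70344152-70352031, minus strand) had 0.909, 1.21 and 0.0776 CPM in WT 1, 2 and 3, which are 31, 44 and 3 counts. The libraries labelled LysM-DKO had 0, 2.36 and 0.250 CPM, or 0, 97 and 10 counts, and the count of 0 allows up to 0.0716 CPM before scaling. ABCG1KO 1 and 2 had 884 and 135 CPM, or 28206 and 5726 counts. Both ABCG1KO libraries thus lay far above the other 6, and they differed from each other 6.55-fold. The log2 fold change of ABCG1KO over WT was 9.45 (SE 1.60), a 699-fold ratio, and it was 7.52 (SE 1.69) without ABCG1KO 1. No part of its transcripts was shared with another annotated gene in runs of 50 bases. The other lipoxygenases (Alox12, Alox12b, Alox12e, Alox8 and Aloxe3) were too low to be tested.

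Alox5, the first enzyme of leukotriene synthesis (chr6:116410077-116461178, minus strand), had 0.879, 1.38 and 0.466 CPM in WT 1, 2 and 3. The libraries labelled LysM-DKO had 0.630, 6.51 and 1.75 CPM, and ABCG1KO 1 and 2 had 69.6 and 35.4 CPM. Both ABCG1KO libraries were above all others, and LysM-DKO overlapped WT, with LysM-DKO 2 and LysM-DKO 3 above every WT library. The log2 fold change of ABCG1KO over WT was 5.85 (SE 0.958), with an adjusted p of 0.00787 from edgeR. This call held in all 18 alternative analyses, with log2 fold changes of 5.27 to 8.56.

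Alox5ap (chr5:149264767-149288153, plus strand), the partner of Alox5, had 208, 160 and 135 CPM in WT, 90.1, 97.8 and 179 CPM in LysM-DKO, and 659 and 338 CPM in ABCG1KO. It was thus abundant in every group, and only ABCG1KO stood clear of the others. The log2 fold change of ABCG1KO over WT was 1.57 (SE 0.375, edgeR adjusted p = 0.0274). The call was lost without any one of WT 1 (adjusted p = 0.0502), WT 2 (0.0851), WT 3 (0.0818) or ABCG1KO 1 (0.181), in each case by edgeR. An antisense gene overlaps 13.3% of its exon length, and since the strand setting of the counting is not given, reads of both cannot be told apart.

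Lta4h (chr10:93453411-93484875, plus strand), which makes leukotriene B4, had 127, 108 and 106 CPM in WT, 115, 94.7 and 88.1 CPM in LysM-DKO, and 78.0 and 82.4 CPM in ABCG1KO. The ABCG1KO libraries lay below all others, with little spread, but the change was small. Its log2 fold change over WT was -0.51 (SE 0.158) and did not pass (edgeR adjusted p = 0.0633).

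Ltc4s (chr11:50236461-50238616, minus strand), which makes leukotriene C4, had 2.78, 3.15 and 2.04 CPM in WT, 3.51, 10.9 and 1.47 CPM in LysM-DKO, and 42.0 and 8.59 CPM in ABCG1KO. ABCG1KO was above WT, and ABCG1KO 2 was below LysM-DKO 2. The log2 fold change of ABCG1KO over WT was 3.25 (SE 0.876, edgeR adjusted p = 0.0435). It fell to 1.68 without ABCG1KO 1 (edgeR adjusted p = 0.278), and the call was also lost when WT 1 (0.118), WT 2 (0.104), WT 3 (0.120) or LysM-DKO 1 (0.0571) was left out. An antisense gene overlaps 26.4% of its exon length, and 15.2% of its sequence in runs of 50 bases is shared with other genes.

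The cyclooxygenases themselves did not pass the test in ABCG1KO. Ptgs1 (chr2:36230426-36252272, plus strand), the constitutive form, had 49.2, 52.2 and 20.3 CPM in WT, 19.4, 70.0 and 45.6 CPM in LysM-DKO, and 75.9 and 66.4 CPM in ABCG1KO. ABCG1KO was above WT by 0.81 on the log2 scale (SE 0.538), which edgeR did not call (adjusted p = 0.346). Ptgs2 (chr1:150100031-150108227, plus strand), the inducible form, had 0.997, 3.12 and 6.004 CPM in WT, 2.69, 6.09 and 34.7 CPM in LysM-DKO, and 7.81 and 23.1 CPM in ABCG1KO. Its libraries differed strongly within every group, and its log2 fold change of 2.19 in ABCG1KO over WT (SE 1.10) was not called (edgeR adjusted p = 0.220).

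Of the terminal synthases, Ptges and Hpgds moved in opposite directions in ABCG1KO. Ptges (chr2:30889471-30929863, minus strand), the inducible prostaglandin E2 synthase, had 10.1, 12.8 and 6.004 CPM in WT, 10.5, 16.7 and 17.4 CPM in LysM-DKO, and 75.6 and 27.4 CPM in ABCG1KO. Both ABCG1KO libraries were above all others, and the log2 fold change over WT was 2.41 (SE 0.463, edgeR adjusted p = 0.0131). It was 1.497 without ABCG1KO 1, where the call was lost (edgeR adjusted p = 0.0784).

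Hpgds (chr6:65117293-65144908, minus strand), the haematopoietic prostaglandin D2 synthase, had 220, 153 and 255 CPM in WT, 274, 193 and 185 CPM in LysM-DKO, and 69.6 and 121 CPM in ABCG1KO. Both ABCG1KO libraries were below all others, and the log2 fold change over WT was -1.14 (SE 0.315, edgeR adjusted p = 0.0440). This call was lost without ABCG1KO 1 (-0.80, adjusted p = 0.212) and with scaling by library size alone (-0.90, 0.0717), both by edgeR. Leaving out WT 1 (adjusted p = 0.102) or WT 3 (0.109) also ended it, as did leaving out the second (0.0656) or the third (0.0558) library labelled LysM-DKO, again by edgeR. Tbxas1 (chr6:38875404-39084585, plus strand), the thromboxane synthase, had 182, 215 and 167 CPM in WT, 169, 238 and 154 CPM in LysM-DKO, and 212 and 194 CPM in ABCG1KO. The groups overlapped, and the log2 fold change of ABCG1KO over WT was 0.11 (SE 0.208, edgeR adjusted p = 0.755).

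**Figure D3:**
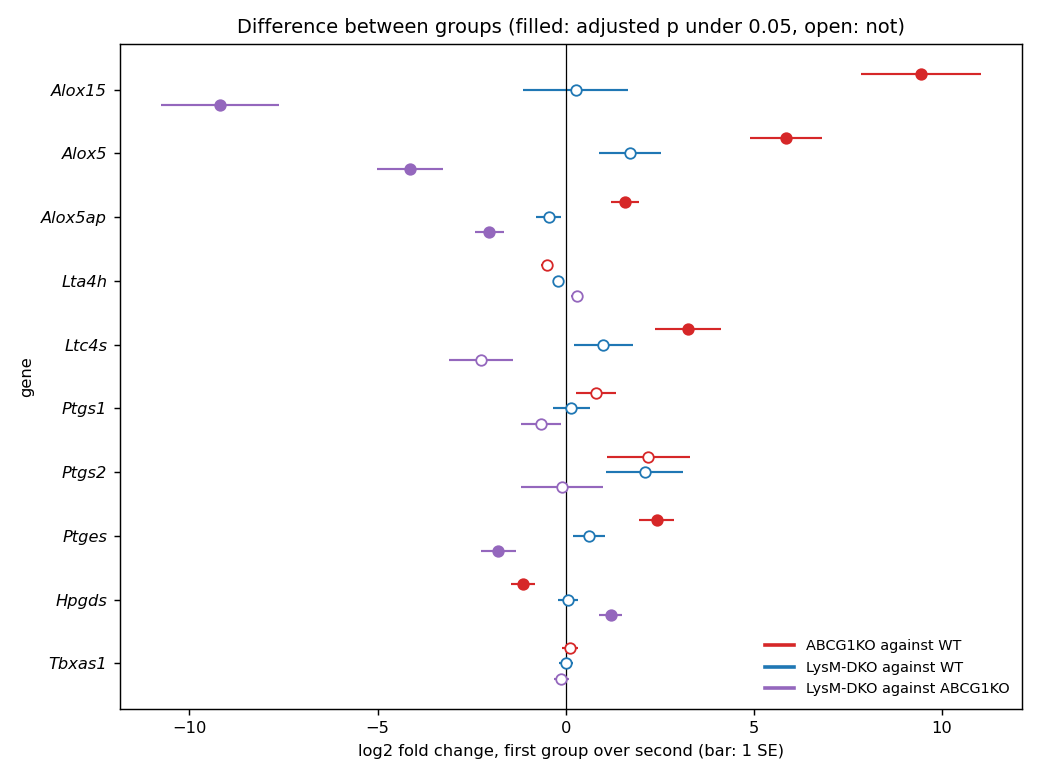
Log2 fold change of each gene (horizontal axis, first group over second, bars of 1 SE) in ABCG1KO against WT, LysM-DKO against WT and LysM-DKO against ABCG1KO. Filled points have an adjusted p under 0.05 by edgeR, and the points of Alox15, which was chosen for its rise, reach 9.45 and -9.18.

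The size of these differences was not even between both ABCG1KO libraries. ABCG1KO 1 was higher than ABCG1KO 2 for 7 of the 10 genes, by 6.55-fold for Alox15, 4.89-fold for Ltc4s, 2.76-fold for Ptges, 1.97-fold for Alox5 and 1.95-fold for Alox5ap. Ptgs2 was 2.95-fold higher in ABCG1KO 2. Without ABCG1KO 1, only Alox5 of the 10 genes was called, and without ABCG1KO 2 the 6 called genes were Alox15, Alox5, Alox5ap, Ltc4s, Ptges and Hpgds. With a term for Y-linked transcripts in the fit, only Alox5 was called, and this fit compares ABCG1KO with WT through LysM-DKO 1. LysM-DKO 1, the library of the other groups with Y-linked transcripts, had 0 counts of Alox15, 0.630 CPM of Alox5, 90.1 CPM of Alox5ap, 3.51 CPM of Ltc4s, 10.5 CPM of Ptges and 274 CPM of Hpgds. In its group it was the lowest library for Alox15, Alox5, Alox5ap and Ptges, the middle one for Ltc4s and the highest for Hpgds.

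Markers of other cell types were read beside these genes. The summed level of 10 mast cell markers was 2.46 to 5.94 CPM in WT, 0.872 to 3.12 CPM in LysM-DKO, and 56.0 and 13.2 CPM in ABCG1KO 1 and 2, with 9 and 8 markers above 3 counts. Cma1 was at 15.02 and 1.11 CPM in ABCG1KO, Tpsb2 at 15.4 and 3.96 CPM and Cpa3 at 9.78 and 1.16 CPM, and Fcer1a was at 0 in ABCG1KO 2. Of 7 mast cell markers tested, 1 was called in ABCG1KO against WT (Kit, higher), beside 7.21% of all genes, and Cma1, Tpsb2 and Cpa3 did not pass (edgeR adjusted p = 0.0731, 0.0953 and 0.102). In LysM-DKO against ABCG1KO, 5 of the 7 were called lower, beside 5.64% of all genes. Kit had 72 to 93 counts in ABCG1KO, 2 to 6 in WT and 1 to 3 in LysM-DKO. It could thus enter the test through ABCG1KO, and nothing is read from these counts of mast cell markers called. Lists also differed between both ABCG1KO libraries: ABCG1KO 1 was 4.24-fold higher for mast cell markers and 5.71-fold higher for B cell markers (15.1 and 2.64 CPM, with 2.51 to 30.3 CPM in WT). Fibroblast and mesothelial markers were 7.04-fold higher in ABCG1KO 2 (98.8 and 696 CPM in ABCG1KO 1 and 2, with 419 to 556 CPM in WT). The part of B cell, fibroblast and mesothelial transcripts was not tested either, and the part of mast cell transcripts in the levels of Alox5, Alox5ap, Ltc4s and Hpgds was not tested. Eosinophil markers, over 6 genes, summed to 4.08 and 7.45 CPM in ABCG1KO, 3.14 to 14.0 CPM in LysM-DKO and 15.8 to 30.2 CPM in WT. Both ABCG1KO libraries thus lay within the range of LysM-DKO. Most of the sum in WT was Siglecf (13.0 to 29.6 CPM). The defining granule genes of eosinophils, Epx, Prg2 and Prg3, were at 0.0627 CPM or less in every library. Platelet and megakaryocyte markers, over 7 genes, summed to 167 and 102 CPM in ABCG1KO, 11.9 to 42.6 CPM in LysM-DKO and 5.54 to 35.0 CPM in WT. In ABCG1KO nearly all of this was Pf4 (163 and 99.1 CPM), and Gp9 was at 0 in both libraries. Of 4 platelet markers tested, 1 was called in ABCG1KO against WT (Ppbp, higher), beside 7.21% of all genes, and Pf4 did not pass (edgeR adjusted p = 0.0559). Ppbp had at most 1 count in each WT library and could enter the test through ABCG1KO, so nothing is read from its call. Platelets are known to express Ptgs1 and Tbxas1, and the part of this list in the results was not tested.

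Among markers of other myeloid states, monocyte markers, over 5 genes, summed to 248 and 123 CPM in ABCG1KO, 9.69 to 72.4 CPM in LysM-DKO and 6.004 to 30.2 CPM in WT, and 2 of 5 tested were called higher in ABCG1KO than in WT. Large peritoneal macrophage markers, over 9 genes, summed to 1078 and 638 CPM in ABCG1KO, 448 to 677 CPM in LysM-DKO and 435 to 521 CPM in WT. By this sum ABCG1KO 2 lay within the range of LysM-DKO. In LysM-DKO and WT most of the sum was Cd93 (379 to 625 and 414 to 473 CPM), which was at 285 and 420 CPM in ABCG1KO. In ABCG1KO against WT, 7 of the 9 markers were higher without overlap, beside 23.9% of all genes, and 4 of 9 tested were called higher. Alveolar macrophage markers, over 6 genes, summed to 1619 and 1126 CPM in ABCG1KO, 633 to 1240 CPM in LysM-DKO and 1687 to 2867 CPM in WT. Of 4 tested, 1 was called higher (Marco) and 2 lower (Itgax and Fabp4) in ABCG1KO than in WT. Neutrophil markers, over 9 genes, summed to 1.39 to 6.24 CPM in all libraries, and none of 3 tested was called. The counts of genes called stand beside 7.21% of all genes called higher and 8.83% called lower. Ly6c2, a monocyte marker called higher, had at most 10 counts in each WT library and could enter the test through ABCG1KO. Nothing is read from these counts. The part of these lists in the results was not tested. In bulk RNA, more cells of a type and more RNA per cell cannot be told apart.

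**Figure D4:**
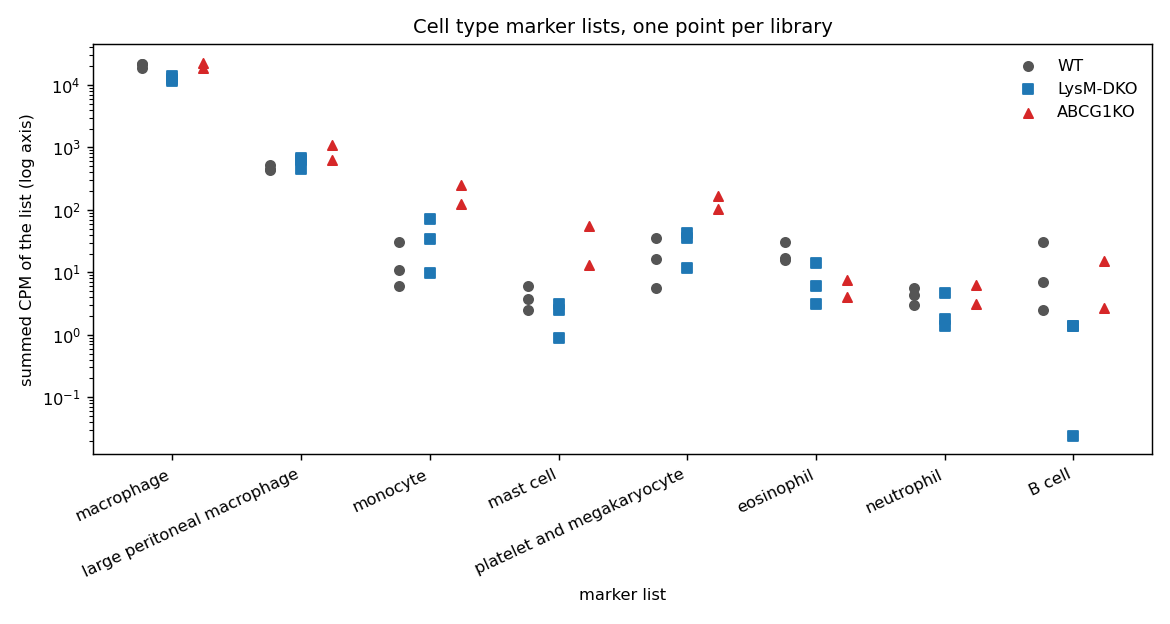
Summed CPM of each marker list (vertical axis, logarithmic) with 1 point per library of WT, LysM-DKO and ABCG1KO. The mast cell list is at 56.0 and 13.2 CPM in ABCG1KO and at 5.94 CPM or less elsewhere, while macrophage markers are above 10000 CPM in every library.

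The libraries labelled LysM-DKO were set against WT. None of the 10 genes was called by edgeR, beside 0.0362% of all genes (0.0217% higher and 0.0145% lower), none had an unadjusted p under 0.05, and none was called by DESeq2. All 10 overlapped between the groups, beside 21.0% of all genes that did not overlap (11.0% higher and 9.98% lower). The 10 genes had a median of 0.21 in log2 fold change, and all genes one of 0.02. The largest fitted values were 2.10 for Ptgs2 (SE 1.03, edgeR adjusted p = 0.466) and 1.71 for Alox5 (SE 0.820, edgeR adjusted p = 0.458). LysM-DKO 3 carried the high value of Ptgs2, at 34.7 CPM, and LysM-DKO 2 that of Alox5, at 6.51 CPM. LysM-DKO 2 was also the highest library of its group for Alox15, Ltc4s, Ptgs1 and Tbxas1. For Alox15 the log2 fold change was 0.27 (SE 1.39) and turned to -2.54 without LysM-DKO 2. Tbxas1 (-0.0048, SE 0.186), Hpgds (0.05, SE 0.271), Alox5ap (-0.45, SE 0.340), Lta4h (-0.20, SE 0.139), Ltc4s (0.99, SE 0.783), Ptgs1 (0.15, SE 0.487) and Ptges (0.62, SE 0.418) did not pass either.

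The comparison of LysM-DKO with ABCG1KO sets both knockouts against each other and uses the same ABCG1KO libraries as above. LysM-DKO 2 and LysM-DKO 3 had Xist, a transcript of female cells, at 265 and 254 CPM, and Y-linked transcripts at or near 0. Only LysM-DKO 1 shared Y-linked transcripts with ABCG1KO, so sex and genotype are largely confounded here too. With a term for Y-linked transcripts, Alox15 and Alox5 alone of the 10 genes were called. Alox5 (log2 fold change -4.15, SE 0.880, edgeR adjusted p = 0.0237), Alox5ap (-2.03, SE 0.377, 0.0128) and Ptges (-1.79, SE 0.457, 0.0395) were lower in LysM-DKO, and Hpgds was higher (1.19, SE 0.316, 0.0427). Alox15 had a log2 fold change of -9.18 (SE 1.57). With it, 5 of the 10 genes were called, beside 13.4% of all genes: 4 lower, beside 5.64%, and 1 higher, beside 7.76%. The CPM of both groups did not overlap for 4 genes that were lower and 2 that were higher in LysM-DKO, beside 22.6% and 25.6% of all genes and 48.2% in either direction. Ltc4s, with -2.25 (SE 0.850), did not pass by edgeR (adjusted p = 0.119) and passed by DESeq2 (adjusted p = 0.0161), and without LysM-DKO 2 it was at -3.36 (edgeR adjusted p = 0.0480). Lta4h (0.31, SE 0.157), Ptgs1 (-0.66, SE 0.538), Ptgs2 (-0.09, SE 1.10) and Tbxas1 (-0.12, SE 0.208) did not pass. Without ABCG1KO 1 none of the 10 genes was called, and without LysM-DKO 3 only Alox15 and Alox5ap were. The calls of Ptges and Hpgds were both lost when WT 1, LysM-DKO 1, LysM-DKO 2 or LysM-DKO 3 was left out. Ptges was also lost without WT 2, and Hpgds without WT 3.

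The wider eicosanoid pathway was read from 60 further genes, of which 44 were tested. In ABCG1KO against WT, 16 of the 44 were called, beside 16.0% of all genes. Of these, 10 were higher, beside 7.21%, and 6 were lower, beside 8.83%. The 44 genes had a median log2 fold change of 0.18, and all genes one of 0.01. In LysM-DKO against WT none of the 44 was called by edgeR, and 9 had an unadjusted p under 0.05, as did 1611 of all 13821 genes. DESeq2 called 2 of the 45 it tested, and 278 of all 13720 genes. In LysM-DKO against ABCG1KO, 12 were called, beside 13.4% of all genes: 4 higher, beside 7.76%, and 8 lower, beside 5.64%. Without ABCG1KO 1, the 7 genes Lpcat2, Cyp2j6, Abcc1, Ptger3, Ptger4, Ltb4r1 and Cmklr1 remained called against WT. Leaving out WT 1 or WT 2 kept 10 of the 16 calls in each case, and a term for Y-linked transcripts kept those of Lpcat2, Hpgd, Abcc1 and Ptger4. Of the 12 calls between both knockouts, 2 (Abcc1 and Ptgir) were kept without ABCG1KO 1, 6 without LysM-DKO 1 and 7 without LysM-DKO 2.

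Of 15 receptors listed, 10 were tested, and 6 were called in ABCG1KO against WT, all higher, beside 7.21% of all genes called higher. Ltb4r1, Ptger3 and Fpr2 had as few as 1 count in WT and could enter the test through the groups where they are higher. Nothing is therefore read from this count. With at least 10 counts required in every library, 3 receptors were called (Ptger4, Ptgir and Cmklr1). Ltb4r1, the high-affinity leukotriene B4 receptor, had 8.81 and 4.62 CPM in ABCG1KO and 0.0250 to 0.268 CPM in the other libraries. Its log2 fold change over WT was 5.86 (SE 0.943), given as a description. Ptgir, the prostacyclin receptor, had 46.8 CPM in both ABCG1KO libraries, 5.43 to 14.5 CPM in WT and 4.77 to 8.32 CPM in LysM-DKO. Ptger4, a prostaglandin E2 receptor, had 58.7 and 41.1 CPM in ABCG1KO and 18.2 to 21.6 CPM in WT (log2 fold change 1.36, SE 0.206, edgeR adjusted p = 0.00464). Ptger3, another prostaglandin E2 receptor, was low, at 0.627 and 1.13 CPM in ABCG1KO and at most 3 counts in each WT library. Cmklr1, the chemerin receptor also described for resolvin E1, had 233 and 163 CPM in ABCG1KO and 33.0 to 49.0 CPM in WT. Fpr2, a formyl peptide and lipoxin receptor, had 39.5 and 11.1 CPM in ABCG1KO and 0.607 CPM or less in WT, and 31.5% of its sequence in runs of 50 bases is shared with other genes. Ptgir, Ptger4, Cmklr1 and Fpr2 were lower in LysM-DKO than in the same ABCG1KO libraries, with edgeR adjusted p-values of 0.00391, 0.0302, 0.0183 and 0.0315. Ltb4r1 was lower there too, which is likewise a description.

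Genes that supply, remove or export eicosanoids moved in both directions in ABCG1KO. Among 11 tested genes of arachidonate release, Lpcat2, which makes platelet-activating factor and reacylates phospholipids, rose (205 and 114 CPM in ABCG1KO and 19.3 to 28.3 CPM in WT). Mboat7, which returns arachidonate to phosphatidylinositol, fell by 0.73 on the log2 scale (SE 0.130, edgeR adjusted p = 0.00939), and Pla2g2e, a secreted phospholipase, had 0.188 and 0.118 CPM in ABCG1KO and 0.909 to 2.18 CPM in WT. Hpgd, which inactivates prostaglandins, rose to 18.9 and 20.0 CPM from 1.19 to 2.76 CPM in WT (log2 fold change 3.45, SE 0.947, edgeR adjusted p = 0.0446). Its call was lost in 9 of 17 alternative analyses. Abcc1, an exporter of leukotriene C4, had 176 and 226 CPM in ABCG1KO and 63.96 to 86.9 CPM in WT, and its call held in all 18 alternative analyses.

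In the epoxygenase branch 2 of 5 tested genes were called lower in ABCG1KO than in WT, beside 8.83% of all genes. Cyp2j6, an epoxygenase, had 3.51 and 4.98 CPM in ABCG1KO and 11.7 to 16.6 CPM in WT (log2 fold change -1.79, SE 0.269, edgeR adjusted p = 0.00446). Ephx2, the soluble epoxide hydrolase, had 0.0314 and 0.142 CPM in ABCG1KO and 0.725 to 1.63 CPM in WT. In leukotriene metabolism, Mgst3, a microsomal glutathione transferase, was lower (9.75 and 12.4 CPM, 21.0 to 30.4 CPM in WT), as was Dpep1, a dipeptidase of leukotriene D4. Dpep1 was near the floor, with 0 counts in both ABCG1KO libraries, 4 to 8 counts (0.104 to 0.221 CPM) in WT and 9 to 33 counts in LysM-DKO. Cotl1, which binds the Alox5 protein, was higher (1767 and 1186 CPM, 777 to 983 CPM in WT, edgeR adjusted p = 0.0488). These calls were often lost in the alternative analyses: in 8 of 18 for Mgst3, 11 of 14 for Dpep1 and 13 of 18 for Cotl1. None of the 5 tested prostanoid synthases outside the 10 genes was called in ABCG1KO against WT, beside 16.0% of all genes.

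**Figure D5:**
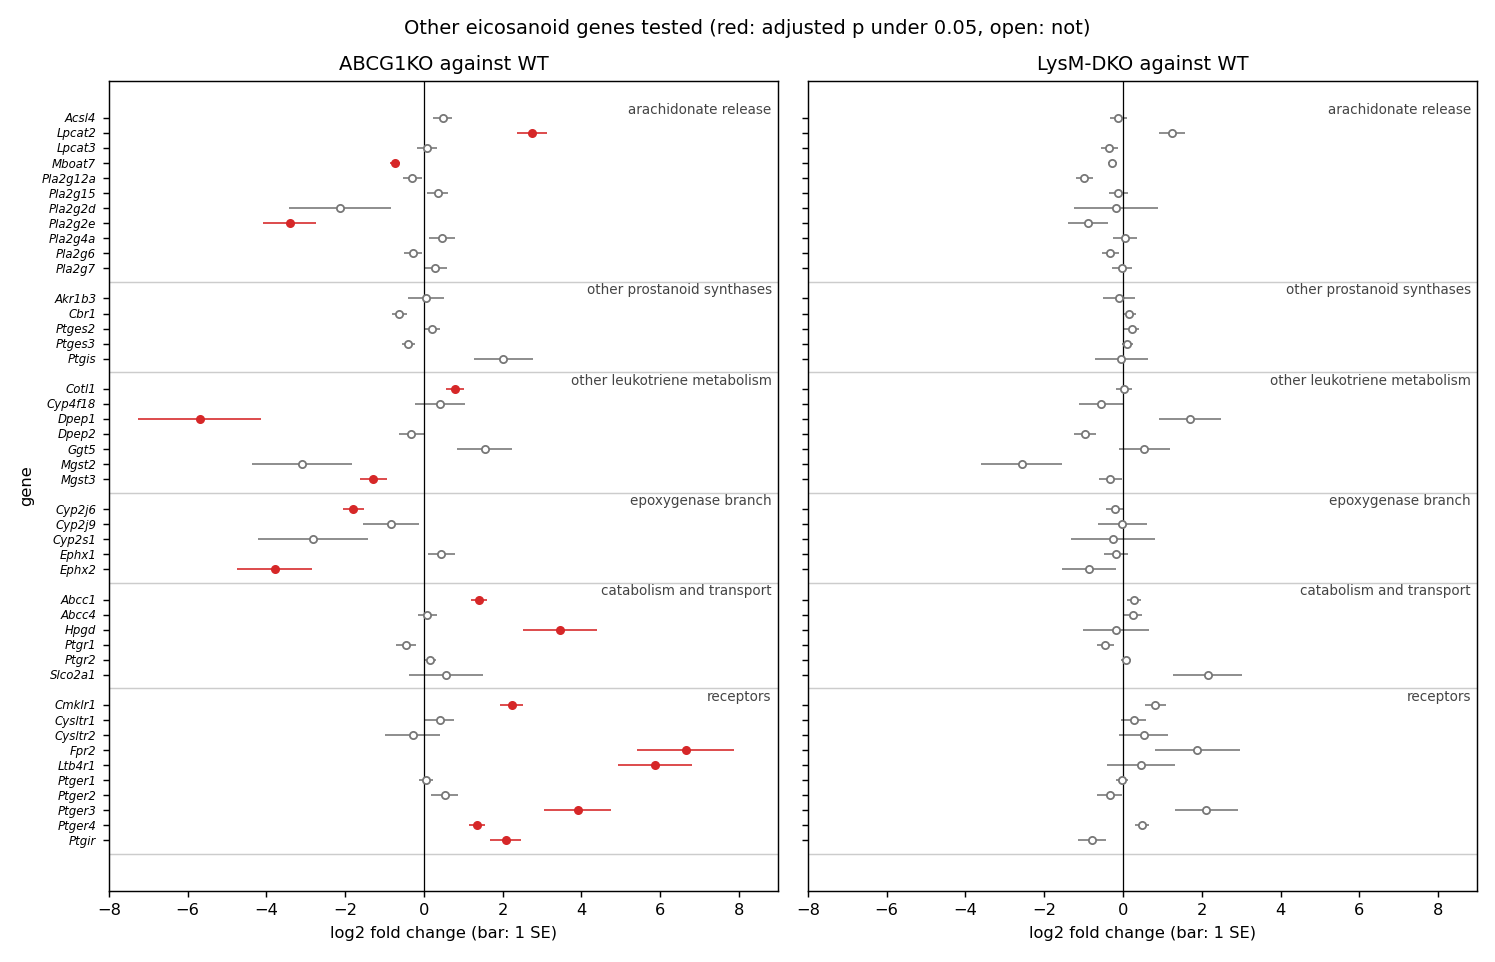
Log2 fold change (horizontal axis, bars of 1 SE) of the 44 further eicosanoid genes tested, by branch, in ABCG1KO against WT on the left and LysM-DKO against WT on the right. Red filled points have an adjusted p under 0.05 by edgeR, which holds for 16 genes on the left, 6 of them receptors, and for 0 genes on the right.

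The genes most like each of the 10 were sought by Pearson correlation of log2(CPM + 1) over the 8 libraries, among 8502 candidates with a mean of at least 10 CPM. For Alox15 they were Slc37a4 (r = 0.996), Nfkbie (0.995), Slc2a9 (0.993), Prg4 (0.988) and Atrnl1 (0.988). These values are a description over libraries that share their groups, and both ABCG1KO libraries were the highest for Alox15 and for each of these 5 genes. The size of the change differed widely among them. Prg4, a marker of large peritoneal macrophages, had 499.81 and 60.7 CPM in ABCG1KO and 0.170 to 2.52 CPM elsewhere, whereas Slc37a4, the glucose 6-phosphate transporter, had 20.4 and 18.9 CPM in ABCG1KO and 14.7 to 16.0 CPM elsewhere. Gata6, which specifies these macrophages, was not among the 5 genes most like Alox15 and was named with its values already known. It was at 28.7 and 32.6 CPM in ABCG1KO, 7.04 to 17.0 CPM in WT and 1.99 to 27.99 CPM in LysM-DKO. These levels of Gata6 are a description only. Of the 9 large peritoneal macrophage markers, 7 were higher in ABCG1KO than in WT without overlap, and Cd93 and Garnl3 overlapped. Cd93 was at 285 and 420 CPM in ABCG1KO and at 414 to 473 CPM in WT. The nearest genes were Atxn1 and Scamp1 for Alox5 (r = 0.993 and 0.987), Serp1 and Smim7 for Alox5ap (0.992 and 0.9903), Ncf1 and Hfe for Ltc4s (0.982 and 0.978), and Jarid2 and Cd14 for Ptges (0.988 and 0.985). They were Rdh13 and Dnajc12 for Lta4h (0.973 and 0.972), Clcc1 and Tmem205 for Hpgds (0.984 and 0.983), Nt5dc2 and Cpne2 for Ptgs1 (0.971 and 0.942), Myh9 and Slc7a8 for Ptgs2 (0.966 and 0.953), and Bmp2 and Stx2 for Tbxas1 (0.960 and 0.953).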

How the data were processed

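RNA was extracted with a Qiagen RNeasy kit and sequenced by BGI, per the labels' protocols. The authors deposited raw counts per gene symbol, 1 file per library. The submitters' processing notes name mm10, STAR 2.7.9a, TopHat, HTSeq 0.11.2, DESeq2 1.30.1 and limma, with no role. The annotation and strand setting are not given in the sources used here. The 5 special lines of each file (7.85% to 21.4% of reads) were left out.

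All 8 libraries entered 1 edgeR 4.0.16 quasi-likelihood fit in R 4.3.3 (filterByExpr, TMM factors, a term per group, robust weights), tested on simulated data. Robust weights were chosen after both versions had been seen, to match an earlier analysis of these files. Benjamini-Hochberg adjustment covered all 13821 genes, with calls at an adjusted p under 0.05. DESeq2 1.42.0 was an alternative. CPM are counts over the TMM-scaled library size. Exon lengths, positions and overlaps came from GENCODE (GRCm38), and shared sequence is the share of runs of 50 bases found in transcripts of another gene. A count of 0 allows up to 3 counts, or 0.0716 to 0.101 CPM, for counting error only.

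The genes and lists were chosen with earlier results of these data known. All 10 genes are named, along with other eicosanoid genes called in at least 1 comparison, the 5 genes most like Alox15 and the 2 most like each other gene. Gata6, mast cell, platelet and eosinophil markers are named here with their values already known.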

Additional observations from a re-analysis of the deposited data

Results flagged for a closer look

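Reads assigned to no gene were used in no comparison. Reads outside annotated genes averaged 12.0% in ABCG1KO, 5.29% in WT and 5.44% in LysM-DKO, and reads aligned to several places averaged 6.84%, 2.94% and 2.80%. Both shares were above the control level. Their part in the results on the 10 genes was not tested. No transcript sequence of Alox15, Alox5 or Ptges was shared with other genes in runs of 50 bases. The fit of genes with under 1% of shared sequence held 6 of the 10 genes, without Alox5ap and Ltc4s. In it Alox5, Ptges and Hpgds were called in ABCG1KO against WT, beside Alox15. In LysM-DKO against ABCG1KO it called Alox15 and Alox5, and the calls of Ptges and Hpgds were lost. Shared sequence says nothing of reads outside annotated genes.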

How the results depend on the processing

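Beside robust weights, 17 alternatives were fixed earlier. Without robust weights, 3 genes were called in LysM-DKO against WT in place of 5, and the calls among the 10 genes numbered 6, 0 and 5 as before.

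In ABCG1KO against WT, 2216 genes were called. The count was 1456 with the replicate block, 488 with a term for Y-linked transcripts, 825 among genes with under 1% shared sequence, and 853 to 2090 when 1 library was left out. Of the 10 genes, 6 were called, 3 with the replicate block (Alox15, Alox5 and Ptgs2, the last at 3.15), 1 with the Y-linked term, where Alox15 was at 18.10, and 1 to 6 when 1 library was left out. In LysM-DKO against ABCG1KO, 1853 genes were called, and 2947 by DESeq2, 1024 with the replicate block, 719 with the Y-linked term, 948 when only both groups were fitted, 615 with under 1% shared sequence, and 561 to 1960 when 1 library was left out. Of the 10 genes, 5 were called, 2 each with the replicate block, the Y-linked term, only both groups, or under 1% shared sequence, and 0 to 5 when 1 library was left out. In LysM-DKO against WT, 5 genes were called, and 278 by DESeq2, 3 with at least 10 counts in every library, 0 with the replicate block, 2 with the Y-linked term, 8 when only both groups were fitted, 1 with under 1% shared sequence, and 0 to 8 when 1 library was left out. The cause of these shifts was not tested, apart from fewer genes or libraries.

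Replicate numbers were not treated as pairs in the main fit. Same-numbered libraries of WT and LysM-DKO correlated at 0.029, 0.489 and -0.053 in their deviations from group means. Libraries of these groups with different numbers correlated at -0.340 to 0.280. So few values cannot show whether the libraries are paired.

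Among the 10 genes, directions turned only where the main value was not called. In LysM-DKO against WT, Alox15 went to -0.28 without WT 3 and -2.54 without LysM-DKO 2 (range over left-out libraries -2.54 to 0.83), Ltc4s to -0.11 without LysM-DKO 2 (-0.11 to 1.44), Ptgs1 to -0.17 (WT 3 left out) and -0.34 (LysM-DKO 2 left out), within -0.34 to 0.49, and Hpgds to -0.15 with the Y-linked term, -0.15 without WT 2 and -0.16 without LysM-DKO 1 (-0.16 to 0.22). Tbxas1 went to 0.15 with library size alone, 0.063 with the Y-linked term, 0.08 without WT 2, 0.05 without LysM-DKO 1 and 0.12 without LysM-DKO 3 (-0.23 to 0.12). In LysM-DKO against ABCG1KO, Ptgs2 reached 0.38 with LysM-DKO 1 left out, 0.25 with LysM-DKO 2 left out and 0.90 with ABCG1KO 2 left out (-1.81 to 0.90), and Tbxas1 0.0055 with LysM-DKO 3 left out (-0.35 to 0.0055).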
